A study of Mus musculus with 21 samples.

Results

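The 9 genes described here are listed as basal cell keratins and regulators of the olfactory epithelium, but not all are particular to basal cells. The genes are the keratins Krt5, Krt14, Krt15, Krt8 and Krt18, the transcription factors Trp63, Klf4 and Klf5, and the adhesion molecule Icam1. They were taken by symbol and all 9 were found in both deposited tables, of 23587 genes in the table of mice with both drivers and 22918 in the table of mice with the gg8 driver alone. Each library holds RNA of cells sorted out of main olfactory epithelium, taken from mice in which a tetracycline transactivator (tTA) switches on a tetO construct. In the mice called HT the construct encodes HyperTRIBE, an RNA-editing domain, together with mCherry, and in the mice called MexHT the editing domain is joined to the RNA-binding protein Mex3a. The transactivator was gg8tTA, active in immature olfactory sensory neurons (OSN), or gg8tTA with OMPtTA, which adds mature OSN. Genotypes were gg8tTA; OMPtTA; tetO-HyperTRIBE_mCherry for HT, gg8tTA; OMPtTA; tetO-Mex3a_HyperTRIBE_mCherry for MexHT, and gg8tTA; tetO-Mex3a_HyperTRIBE_mCherry for gg8 MexHT. All mice therefore carried the editing domain and mCherry, and ages and strains are not given in the sources used here. Cells with mCherry are called OSN below, as labelled, and cells without it are called negative; the labels place both fractions of a replicate in the same mouse. There were 6 MexHT OSN, 5 MexHT negative, 3 HT OSN, 3 HT negative, 2 gg8 MexHT OSN and 2 gg8 MexHT negative libraries.

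Horizontal basal cells are the reserve stem cells of the olfactory epithelium. They lie on the basement membrane, are held there by hemidesmosomes, and carry filaments of the type II keratin Krt5 paired with the type I keratins Krt14 and Krt15. The p53-family factor Trp63 (p63) keeps them dormant and basal, and Icam1, a ligand of leukocyte integrins, is used as a surface marker to sort them. Krt8 and Krt18 form the filaments of simple epithelia and in this tissue are known from sustentacular, gland and microvillous cells. Klf4 and Klf5 are zinc finger factors of epithelia that bind CACCC and GC boxes.

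Start-site windows are shown for 4 of the genes that moved together or carried the differences described below. They are those of Krt5, a known target of p63, the filament partners Krt8 and Krt18, and Icam1, a known target of NF-kappaB. RefSeq (GRCm38.p6) gave each as 250 bases before and 50 after the annotated start, and windows were found for 6 of the 9 genes. Capitals mark matches on either strand to a p53-family half-site, to the NF-kappaB site GGAAATTCC, to the CACCC box CCACCC and to the TATA box TATAAA. No base was shared by different motifs.
Krt5, chr15:101712856-101713155, minus strand: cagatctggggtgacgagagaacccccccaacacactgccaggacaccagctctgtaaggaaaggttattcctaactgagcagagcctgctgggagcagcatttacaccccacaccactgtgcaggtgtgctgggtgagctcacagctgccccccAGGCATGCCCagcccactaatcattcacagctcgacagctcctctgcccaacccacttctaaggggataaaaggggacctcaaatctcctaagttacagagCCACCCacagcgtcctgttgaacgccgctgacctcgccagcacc
Krt8, chr15:102004293-102004592, minus strand: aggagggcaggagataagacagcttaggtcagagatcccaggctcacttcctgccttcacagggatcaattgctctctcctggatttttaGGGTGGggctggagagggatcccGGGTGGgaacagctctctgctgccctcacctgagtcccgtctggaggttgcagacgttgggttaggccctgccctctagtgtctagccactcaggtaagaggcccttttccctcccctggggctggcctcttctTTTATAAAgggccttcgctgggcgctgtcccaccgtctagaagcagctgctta
Krt18, chr15:102027966-102028265, plus strand: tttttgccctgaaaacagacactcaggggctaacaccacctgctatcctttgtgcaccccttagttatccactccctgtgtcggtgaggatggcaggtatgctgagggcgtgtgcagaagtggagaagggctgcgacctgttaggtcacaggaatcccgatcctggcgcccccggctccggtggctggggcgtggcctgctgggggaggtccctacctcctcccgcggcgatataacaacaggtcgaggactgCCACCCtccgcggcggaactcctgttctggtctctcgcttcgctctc
Icam1, chr9:21015690-21015989, plus strand: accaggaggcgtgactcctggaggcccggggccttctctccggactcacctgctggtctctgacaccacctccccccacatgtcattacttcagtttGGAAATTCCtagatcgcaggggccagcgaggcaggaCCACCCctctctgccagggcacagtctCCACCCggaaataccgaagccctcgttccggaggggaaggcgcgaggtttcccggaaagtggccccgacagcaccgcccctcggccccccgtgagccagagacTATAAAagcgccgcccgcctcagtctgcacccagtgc

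The Krt5 window held 1 p53-family half-site, at bases -95 to -86 counted from the start at 0, and 1 CACCC box at 6 to 11. Of 32851 RefSeq windows of this length, 1.93% held the half-site and 31.5% a CACCC box. The Icam1 window held 1 match to the NF-kappaB site GGAAATTCC at -153 to -145, 2 CACCC boxes, and a TATA box at 13 to 18. The exact letters GGAAATTCC stood in 0.317% of windows, and other forms of the NF-kappaB site were not searched. Krt8 and Krt18 lie on opposite strands of chromosome 15. The Krt8 window had 2 CACCC boxes and, at its start, 2 TATA box matches that overlap each other, and the Krt18 window had 1 CACCC box. Windows of Klf4 and Krt14 were also found but are not shown. The Klf4 window held no match to any of these motifs. The Krt14 window lies inside the annotated gene and held 1 CACCC box and no p53-family half-site. TATA boxes stood in 13.6% of windows. These matches describe the letters only.

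Depth, recovered from the deposited values as whole counts, was 7529648 to 15358109 per library. Mex3a was at 328 to 1271 TPM (length-scaled transcript abundance with a fixed total per library) in the MexHT OSN libraries and at 23.96 to 61.5 TPM in HT OSN, which fits their labels; endogenous and construct transcripts were not separated. The mature OSN marker Omp was also high in the negative cells, at a mean of 745 TPM in MexHT and 1746 TPM in HT, and was at 2749 TPM in gg8 MexHT negative and 109 TPM in gg8 MexHT OSN. Among libraries with gg8tTA and OMPtTA, Xist was at 55.3 TPM or more in every MexHT library and in HT replicate 2, and at 0.0934 to 0.14 TPM in HT replicates 1 and 3.

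All 9 genes had higher means in the negative cells than in the sorted neurons of the same construct and driver, and the 3 markers that define basal cells (Krt5, Krt14 and Trp63) were present in every negative library. Krt5 was at 432, 79.2, 75.9, 146 and 63.3 TPM in MexHT negative replicates 1 to 5. HT negative libraries gave 74.1, 60.0 and 68.7 TPM for Krt5. In MexHT OSN, Krt5 ran from 3.22 to 8.95 TPM with a median of 4.50, and HT OSN libraries were at 6.29, 5.85 and 5.39. The fractions did not overlap, and MexHT negative replicate 1 stood well above the other 4 of its group. Because these are bulk samples, fewer basal cells and less RNA per basal cell cannot be told apart.

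Krt14 followed the same order. It was at 491, 119, 138, 190 and 72.6 TPM in MexHT negative and 81.8, 96.3 and 48.4 TPM in HT negative. In the sorted neurons it was at 3.92 to 6.27 TPM (median 5.999) for MexHT and at 7.12, 7.88 and 3.66 for HT. Krt15 was the least abundant keratin of the set: 72.1, 16.0, 30.5, 32.9 and 48.1 TPM in MexHT negative and 22.6, 8.11 and 6.09 in HT negative. In MexHT OSN it ran from 0 to 1.93 TPM, and 4 of 6 libraries held 3 counts or fewer, which is the floor of measurement used here. HT OSN libraries had 2.13, 1.82 and 0.624 TPM of Krt15.

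Trp63 had the lowest level of the regulators, at 83.4, 13.9, 10.6, 24.5 and 8.003 TPM in MexHT negative and 11.6, 15.2 and 14.5 TPM in HT negative. In MexHT OSN it ran from 0.444 to 1.65 TPM, on 8 to 29 counts, and in HT OSN it was at 1.53, 1.32 and 1.00 TPM. Replicate 1 of MexHT negative was again the highest library, and the fractions did not overlap.

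The simple keratins were higher in every fraction. Krt8 was at 559, 225, 472, 365 and 240 TPM in MexHT negative and 203, 184 and 121 in HT negative. Krt18 gave 965, 359, 692, 531 and 307 TPM in MexHT negative and 326, 329 and 200 in HT negative. In the sorted neurons Krt8 was still at 34.3 to 111 TPM in MexHT (median 39.6) and at 59.1, 33.7 and 30.1 in HT. Krt18 was at 48.8 to 144 TPM (median 61.4) in MexHT OSN and at 114, 61.4 and 42.4 TPM in HT OSN.

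Klf4 was at 461, 205, 265, 283 and 198 TPM in MexHT negative, 152, 144 and 123 in HT negative, 48.6 to 82.8 (median 58.0) in MexHT OSN and 37.0, 33.3 and 34.1 in HT OSN. Klf5 was at 150, 105, 144, 167 and 122 TPM in MexHT negative and 68.5, 73.1 and 60.1 in HT negative. Its levels in the neurons were 11.8 to 50.7 TPM (median 16.2) for MexHT and 23.6, 13.7 and 13.3 for HT. Icam1 was at 127, 52.7, 80.0, 98.9 and 75.1 TPM in MexHT negative and 44.5, 48.1 and 31.6 in HT negative. Its levels in the neurons were 4.41 to 11.3 TPM (median 8.35) for MexHT and 22.0, 21.1 and 29.7 for HT. Icam1 and Klf4 are the members whose OSN libraries separated by construct.

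**Figure D1:**
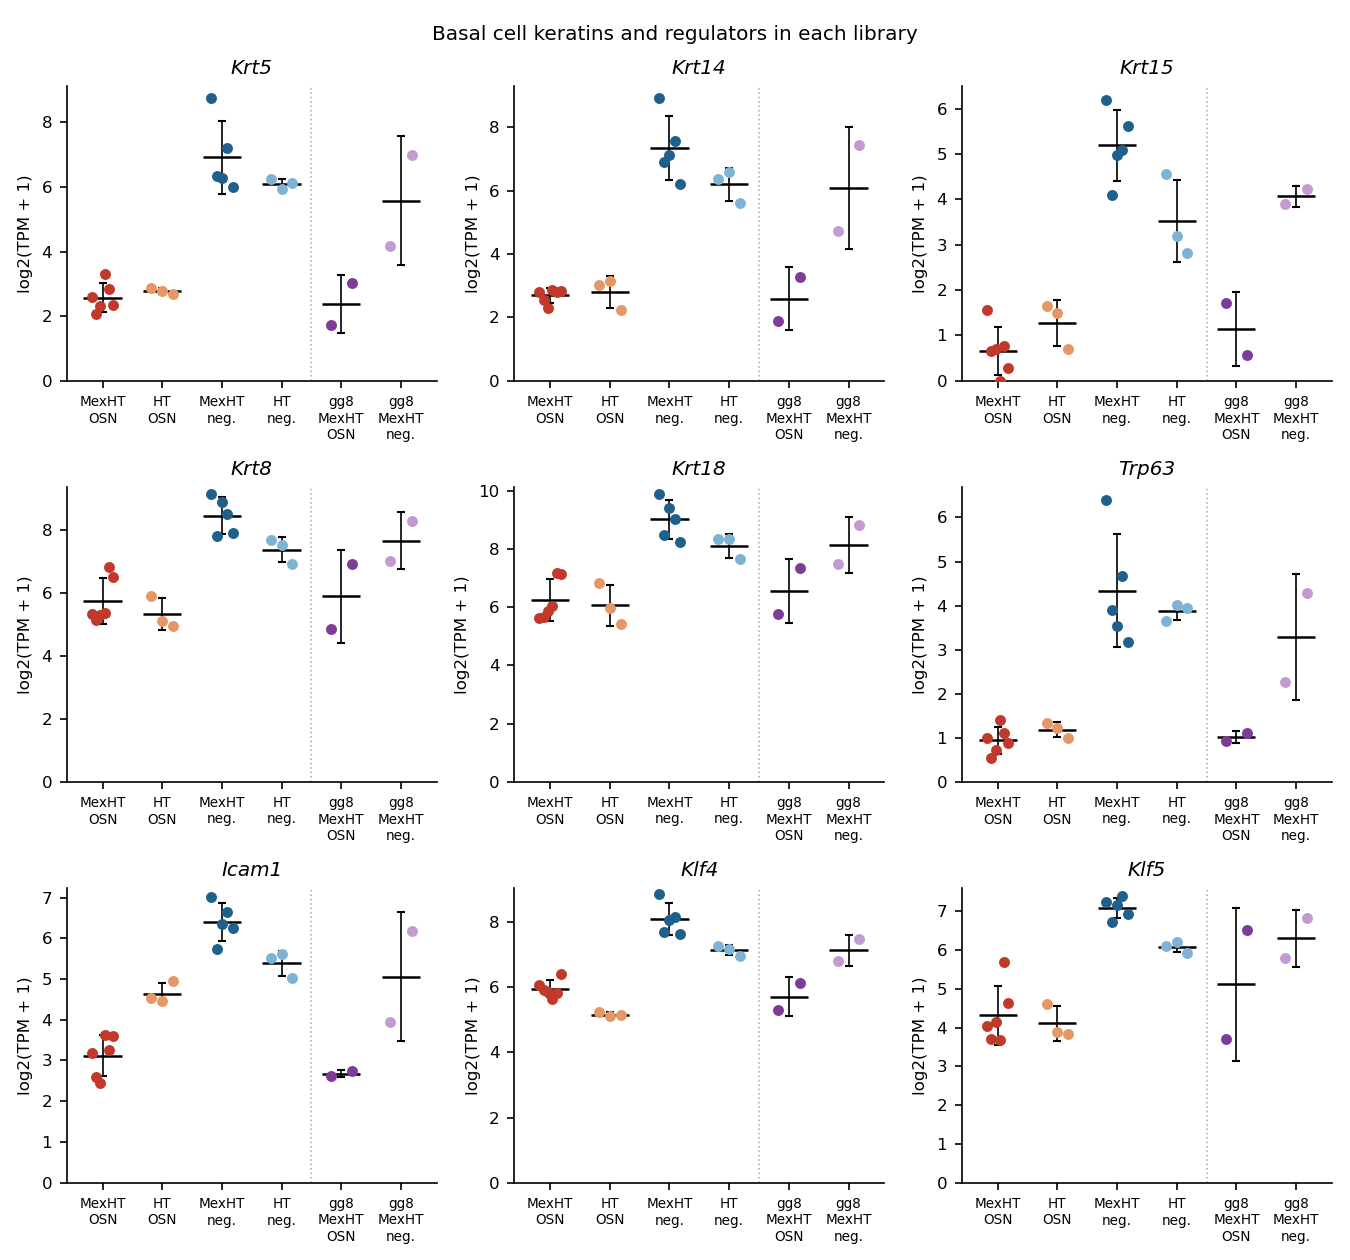
Level of each member as log2(TPM + 1) in every library (points), with the group mean (bar) and SD (whisker); libraries right of the dotted line are from the gg8 table, which was scaled separately. In the libraries of both drivers every gene was lower in both OSN groups than in both negative groups, and MexHT negative replicate 1 was the highest library for Krt5 at 432 TPM.

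The gg8 mice showed the same order of fractions with a wide gap between the 2 mice. These mice also differed in Xist, at 0.441 TPM in OSN and 0.144 TPM in negative cells of mouse 1. In mouse 2 Xist was at 159 TPM in OSN and 21.4 TPM in negative cells. Krt5 was at 16.96 and 125 TPM in the negative cells of mice 1 and 2 and at 2.32 and 7.12 TPM in their sorted neurons. Icam1 was at 14.3 and 71.0 TPM in the negative cells and at 5.11 and 5.65 in the neurons. Klf5 overlapped between fractions, with 54.4 and 113 TPM in the negative cells and 12.1 and 90.7 in the neurons. The gg8 and the other libraries carry different dates in their names, so driver and date cannot be told apart.

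The first comparison asked what the sort separated. With log2(TPM + 1) and limma, a gene was called at an adjusted p under 0.05 (Benjamini-Hochberg over all genes tested). In MexHT mice 9 of 9 members were lower in OSN than in negative cells, against 27.6% of 16522 genes called lower, and for 9 of 9 the libraries did not overlap, against 19.6% of genes. The basal keratins had the widest gaps: log2 differences (OSN minus negative) were -4.65 (SE 0.37, adjusted p = 4.16e-07) for Krt14, -4.53 for Krt15 and -4.34 for Krt5. Trp63 differed by -3.39 and Icam1 by -3.28. Krt18 and Klf5 both differed by -2.77, Krt8 by -2.71 and Klf4 by -2.13 (SE 0.21, adjusted p = 2.27e-06). The median over members was -3.28, against 0.16 over all genes tested.

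In HT mice 8 of 9 members were called lower in OSN, against 9.11% of 17027 genes. Krt14 differed by -3.40 (SE 0.34, adjusted p = 0.0029), Krt5 by -3.32 (SE 0.15, adjusted p = 0.000682) and Trp63 by -2.69. Krt15 differed by -2.24 (SE 0.51, adjusted p = 0.0376), and the other 4 called members by -1.97 to -2.05. Icam1 missed the threshold at -0.74 (SE 0.21, 95% interval -1.24 to -0.24, adjusted p = 0.0664; 0.0604 with the mouse as a block). It passed with median-of-ratios scaling (-0.77, adjusted p = 0.0495) and without HT negative replicate 3 (-0.92, adjusted p = 0.0399). Libraries did not overlap for 9 of 9 members, against 18% of genes. The Krt15 call was lost with voom on the recovered counts (adjusted p = 0.0701) and when HT OSN replicate 1, 2 or 3 or HT negative replicate 1 was left out (adjusted p 0.0841 to 0.101), and the Krt18 call without HT OSN replicate 2 (0.0725) or HT negative replicate 1 (0.0874).

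With the gg8 driver, where 2 mice were compared, 1 of 9 members was called lower in OSN, against 7.2% of 16490 genes: Krt15, by -2.92 (SE 0.59, adjusted p = 0.038). The other 8 had differences from -3.50 (Krt14) to -1.20 (Klf5) that did not pass. For 8 of 9 members the libraries did not overlap, against 30.2% of genes. With the mouse as a block, as the labels pair the fractions, limma called 6 members lower, against 1318 of 16490 genes. These members were Krt14 (adjusted p = 0.0141), Krt5 (0.0211), Krt8 (0.0279), Krt18 (0.028), Krt15 (0.0321) and Klf4 (0.0428). No gene was called in limma when the second OSN library or either negative library was left out.

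Within a mouse, Krt14, Krt5 and Trp63 had low shares of their negative level in the sorted neurons. In 5 MexHT mice the OSN level of Krt14 was 1.22% to 8.25% of the negative level (median 3.29%), that of Krt5 1.15% to 9.62% (median 5.21%) and that of Trp63 1.197% to 14.5% (median 6.18%). Krt15 was at 0% to 3.67% (median 2.07%). Klf4 kept the largest median share, 21.5%, with 14.3% to 28.8%. Krt8 and Krt18 had medians of 10.9% and 12.2%, and mouse 5 was apart at 46.3% and 46.8%. In 3 HT mice Krt14 was at 7.57% to 8.70% and Krt5 at 7.85% to 9.75%, while Icam1 was at 49.5%, 43.8% and 94.0% in mice 1 to 3. Krt15 was at 9.42%, 22.4% and 10.2% in these mice, and in mouse 2 its share was above those of Krt8 (18.3%), Krt18 (18.7%) and Klf5 (18.7%). Connective tissue and bone markers, 7 genes led by Col1a1, were at 0.914% to 1.85% of the negative sum in MexHT mice and 0.439% to 2.19% in HT mice. Sustentacular markers (8 genes) were at 10.5% to 130% and 111% to 227%. The part of these cells in the member levels of the sorted libraries was not tested.

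**Figure D2:**
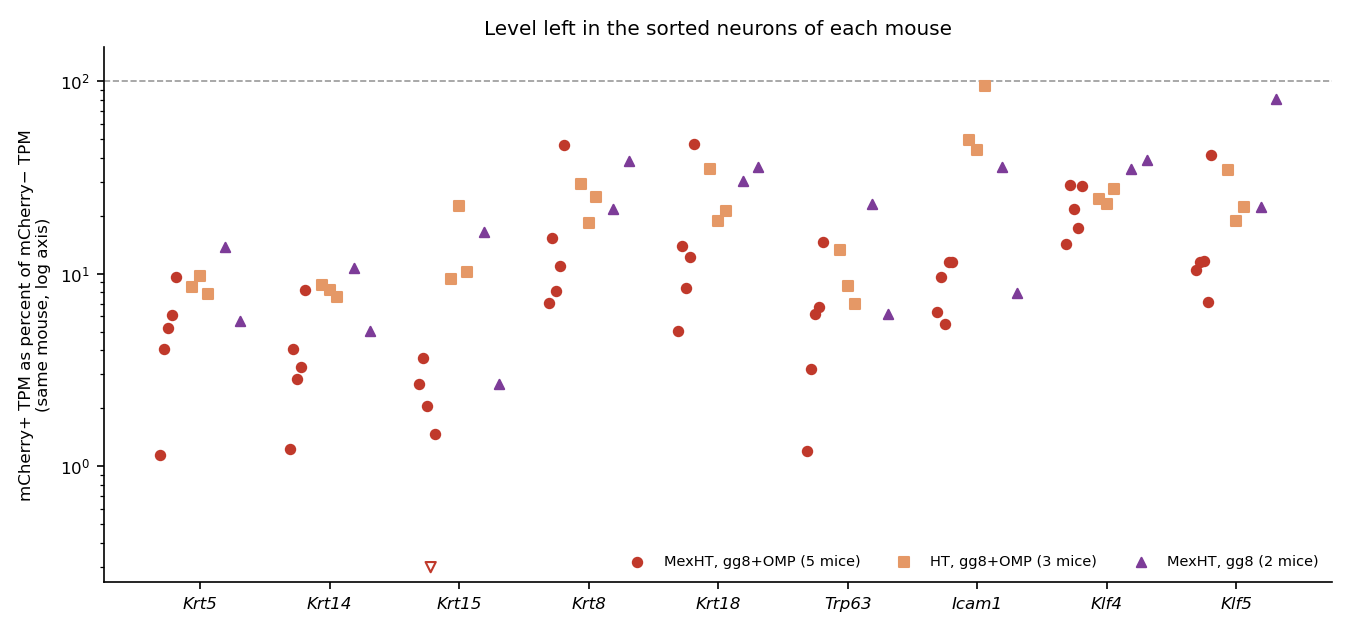
Level of each member in the mCherry-positive cells as a percent of the level in the mCherry-negative cells of the same mouse, on a log axis; 1 point is 1 mouse, the dashed line is equality, and the open triangle at the bottom marks a value of 0. Krt14 lay at 1.22% to 8.25% in MexHT mice, and Icam1 at 43.8% to 94.0% in HT mice against 5.51% to 11.5% in MexHT mice.

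The second comparison asked what the Mex3a fusion changed in the sorted neurons. Icam1 was lower in MexHT OSN, with a mean of 8.11 ± 2.94 TPM (SD, n = 6) against 24.3 ± 4.75 (n = 3), a log2 difference of -1.53 (SE 0.29; limma adjusted p = 0.00316). All 6 MexHT libraries lay below all 3 HT libraries. Klf4 was higher, with 61.6 ± 11.8 TPM (n = 6) against 34.8 ± 1.94 (n = 3), a log2 difference of 0.79 (SE 0.15; limma adjusted p = 0.00339), and all 6 MexHT libraries lay above the 3 HT libraries. Of 8 members tested, 1 was called higher and 1 lower, against 19.9% and 16.8% of 16067 genes, and 2 did not overlap, against 38.4% of genes. The members' shares do not exceed those of all genes. Krt15 had a mean under 1 TPM and was not tested. Neuronal markers differed as well: 5 of 5 immature OSN markers were called higher in MexHT OSN (sums of 2158 to 3101 TPM against 1251 to 1319), and 5 of 6 mature OSN markers lower (1543 to 4252 TPM against 5619 to 8556). The part of neuronal maturity in the Klf4 and Icam1 differences was not tested. Klf4 also had a higher mean in MexHT negative cells than in HT negative cells (0.94, not called). Its interaction of construct and fraction was -0.16 and was not called.

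The basal keratins and Trp63 did not pass. The log2 difference (MexHT minus HT OSN) was -0.20 for Krt5 (95% interval -0.80 to 0.40), -0.10 for Krt14 (-0.65 to 0.45) and -0.24 for Trp63 (-0.81 to 0.33). Krt8 differed by 0.41 (-0.46 to 1.29), Krt18 by 0.18 (-0.75 to 1.11) and Klf5 by 0.21 (-0.70 to 1.12). Both groups were spread for the last 3. HT OSN replicate 1 had 59.1 TPM of Krt8, 114 TPM of Krt18 and 23.6 TPM of Klf5, the highest of its group, and a sustentacular sum of 1911 TPM against 468 and 513 TPM in the other two. MexHT OSN replicates 5 and 6 were the highest of theirs: they had 111 and 89.7 TPM of Krt8, while replicates 1 to 4 had 34.3 to 39.9. They also had 144 and 140 TPM of Krt18 and 50.7 and 24.1 TPM of Klf5.

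MexHT OSN replicates 5 and 6 were also highest in Mex3a, at 1271 and 679 TPM against 328 to 359 TPM in replicates 1 to 4. Their summed level of 8 globose basal and dividing cell markers was 876 and 423 TPM, against 187 to 211 TPM in the other 4. In the gg8 mice, OSN replicate 2 had 1632 TPM of Mex3a, 1088 TPM of these markers, 121 TPM of Krt8 and 90.7 TPM of Klf5. Replicate 1 had 460 TPM of Mex3a, 234 TPM of the markers, 27.8 TPM of Krt8 and 12.1 TPM of Klf5. Krt5 was at 6.09 and 4.03 TPM in MexHT OSN replicates 5 and 6, inside the range of the other 4, but in the gg8 mice it was higher in OSN replicate 2 (7.12 TPM) than in replicate 1 (2.32 TPM). The part of progenitor cells or of the Mex3a level in the simple keratins was not tested.

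Immune markers moved with Icam1 in the sorted neurons. The summed level of 8 immune markers was 237 to 435 TPM in MexHT OSN and 876, 1115 and 3375 TPM in HT OSN; 5 of the 8 were called lower, none was at 0 in all libraries of a group, and Ptprc, the pan-leukocyte marker, differed by -1.90 (limma adjusted p = 0.00303). HT OSN replicate 3, with the highest immune sum, had the highest Icam1 level (29.7 TPM), and replicates 1 and 2 had 22.0 and 21.1 TPM. In the other groups of both drivers, the library with the highest immune sum did not have the highest Icam1 level. MexHT OSN replicate 5 (immune sum 435 TPM) had 8.60 TPM of Icam1, below replicates 4 and 6 (11.3 and 11.2 TPM). HT negative replicate 3 (immune sum 6444 TPM) had the lowest Icam1 level of its group, 31.6 TPM. Endothelial markers, 6 genes, summed to 7.13 to 36.0 TPM in MexHT OSN and 13.5 to 21.9 TPM in HT OSN. The highest MexHT sum included 27.1 TPM of Cldn5 in 1 library, while Pecam1, which leukocytes also express, was called lower (4.23 against 9.37 TPM, -0.98; limma adjusted p = 0.00503). The part of leukocytes or vessels in the Icam1 difference was not tested. With the Xist level as a covariate, 329 genes were called in place of 5907, and neither Icam1 (-1.34, adjusted p = 0.185) nor Klf4 (0.87, adjusted p = 0.124) passed; both kept their direction.

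**Figure D3:**
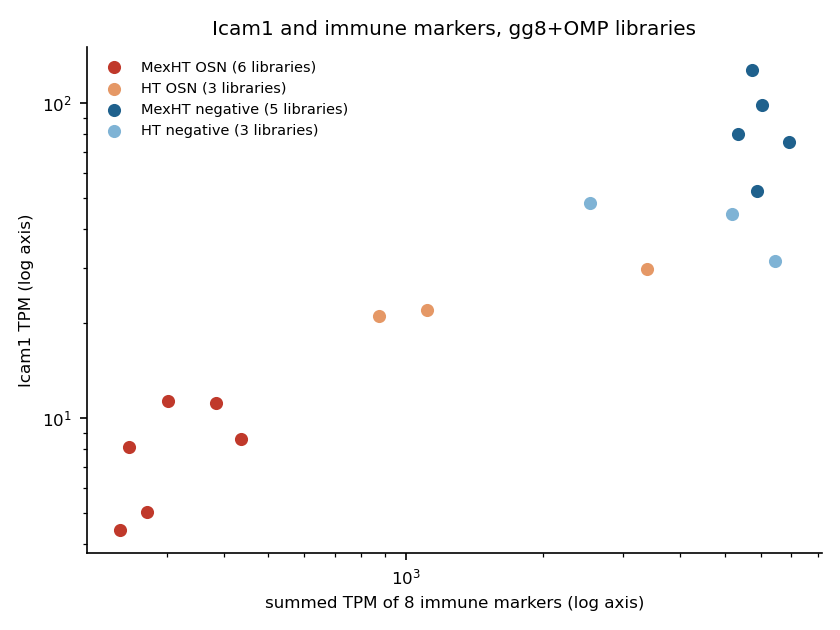
Icam1 level against the summed TPM of 8 immune markers in the 17 libraries of both drivers, on log axes; 1 point is 1 library, coloured by group. MexHT OSN libraries lay at 237 to 435 TPM of immune markers and at most 11.3 TPM of Icam1, and HT OSN libraries at 876 TPM or more and at least 21.1 TPM.

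The third comparison asked whether the negative cells, sorted as lacking mCherry, differed between the mice. All 9 members had a higher mean in MexHT than in HT negative cells, but none was called in limma (lowest adjusted p = 0.218), as 0% of 16860 genes were called; voom on the recovered counts also called 0, and 3465 genes had an unadjusted p under 0.05. Among them, 6 members were below that unadjusted level. The libraries of Krt8, Icam1, Klf4 and Klf5 did not overlap, 4 of 9, against 3.64% of genes that were higher without overlap. Klf5 had the smallest SE of the members, at 138 ± 24.1 TPM (SD, n = 5) against 67.2 ± 6.58 (n = 3), a log2 difference of 1.01 (SE 0.16, 95% interval 0.64 to 1.37). Icam1 differed by 1.01, Klf4 by 0.94 and Krt8 by 1.07. Krt15 had the largest difference, 1.67 (95% interval 0.51 to 2.83). The median over members was 1.01, against -0.01 over all genes tested. Other cell markers differed between the same groups without being called. All 6 mature OSN markers were lower in MexHT negative cells (median -1.67; sums of 427 to 4482 TPM against 3378 to 6811), and all 8 globose basal and dividing cell markers were higher (median 0.75; 517 to 1595 TPM against 461 to 1165). The part of these cells in the members' differences was not tested.

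MexHT negative replicate 1 carried part of these differences. Without it the log2 difference of Krt5 fell from 0.82 to 0.36, that of Krt14 from 1.15 to 0.75 and that of Trp63 from 0.46 to -0.056, while Klf5 remained at 0.97 and Icam1 at 0.86. In that library the sum of 8 sustentacular markers was 2352 TPM, against 350 to 664 TPM in the other 4, and the sum of 6 microvillous and ionocyte markers was 690 TPM, against 123 to 342. Its immune sum, 5735 TPM, was inside the range of the others. The part of these cells in its high keratin levels was not tested. Same-numbered libraries deviated together (correlations 0.337, 0.418 and 0.231 for numbers 1 to 3), and with the replicate number as a block 0 genes were called.

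The interaction over the 17 libraries asked whether the gap between fractions depended on the construct. It was called for Icam1, at -2.54 on the log2 scale (SE 0.41; limma adjusted p = 0.0017), and for Krt15, at -2.29 (SE 0.64; adjusted p = 0.0289); both gaps were wider in MexHT. These are 2 of 9 members called lower, against 5.37% of 16785 genes. Icam1 was lower in MexHT OSN than in HT OSN. In negative cells its mean was higher in MexHT, but that difference was not called (limma adjusted p = 0.218). The interaction of Icam1 passed in all 22 alternative settings, which did not include the Xist level as a covariate. Immune markers had interactions of the same sign, 5 of 8 called lower with a median of -2.50, and Ptprc stood at -2.45 (limma adjusted p = 0.00416); their part in the Icam1 interaction was not tested. Krt15 passed in 16 of 22; it was lost with a pseudocount of 0.1 TPM (adjusted p = 0.060), with voom (0.11), and without HT OSN replicate 1 or 2 or HT negative replicate 2 or 3 (0.0674 to 0.0803). The remaining 7 differences ran from -1.25 (Krt14) to -0.16 (Klf4). Klf4 had the narrowest interval of them, -0.80 to 0.49. Without MexHT OSN replicate 5 Klf5 passed as well (-1.07, adjusted p = 0.0358).

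**Figure D4:**
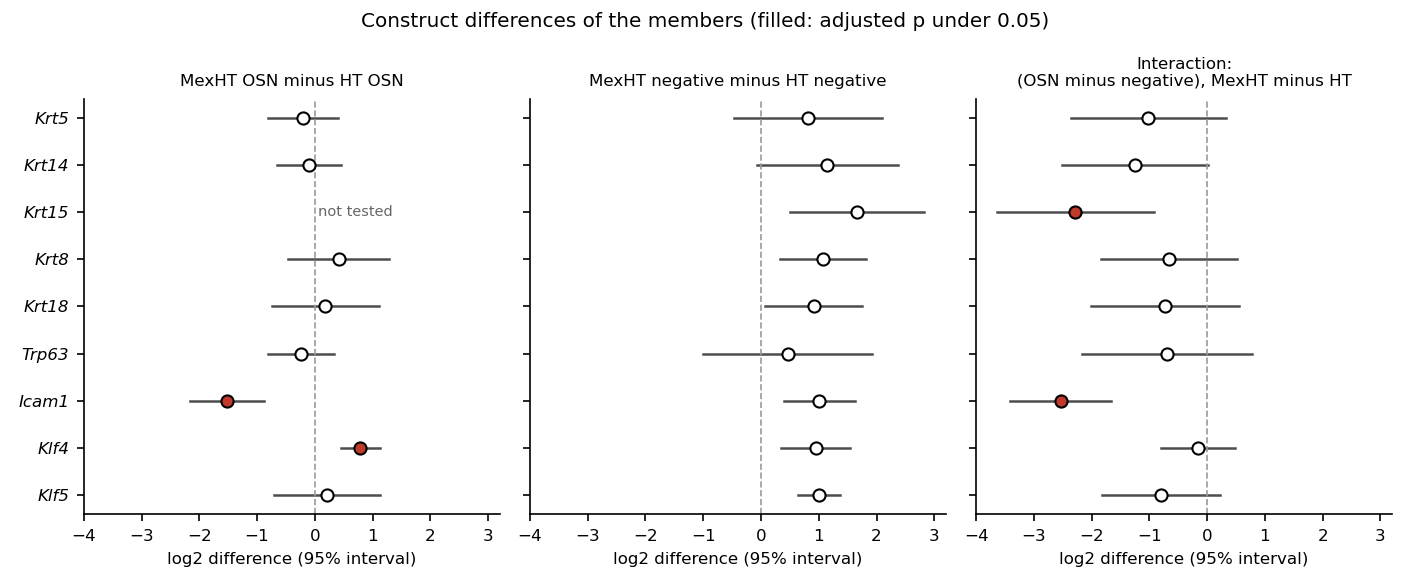
Log2 differences of the members between constructs within OSN (left) and negative cells (middle), and the interaction (right), with 95% intervals; filled points passed an adjusted p of 0.05. Icam1 was called in OSN (-1.53) and in the interaction (-2.54), and all 9 points lay above 0 in the negative cells.

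Of the partner keratins, Krt8 and Krt18 kept a narrow range of ratios while their levels changed. The ratio of Krt5 to Krt14 was less steady, and ran from 0.623 to 1.42 within HT negative. TPM is scaled per length, so levels of different genes can be set side by side within a library. The ratio of Krt8 to Krt18 was 0.517 to 0.807 in all 21 libraries, with group medians from 0.550 in HT OSN to 0.707 in gg8 MexHT negative. The ratio of Krt5 to Krt14 was 0.551 to 1.47, with a median of 0.770 in MexHT negative and 0.919 in MexHT OSN. The ratio of Krt5 to Krt8 covered a wider range, 0.045 to 0.774. Its median was 0.353 in MexHT negative and 0.365 in HT negative, and 0.0988 in MexHT OSN and 0.173 in HT OSN. MexHT negative replicate 1 had the highest Krt5 to Krt8 ratio of all libraries, and MexHT OSN replicate 6 had the lowest. Krt15 stood at 0.134 to 0.663 of Krt14 in MexHT negative and 0.0842 to 0.276 in HT negative.

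**Figure D5:**
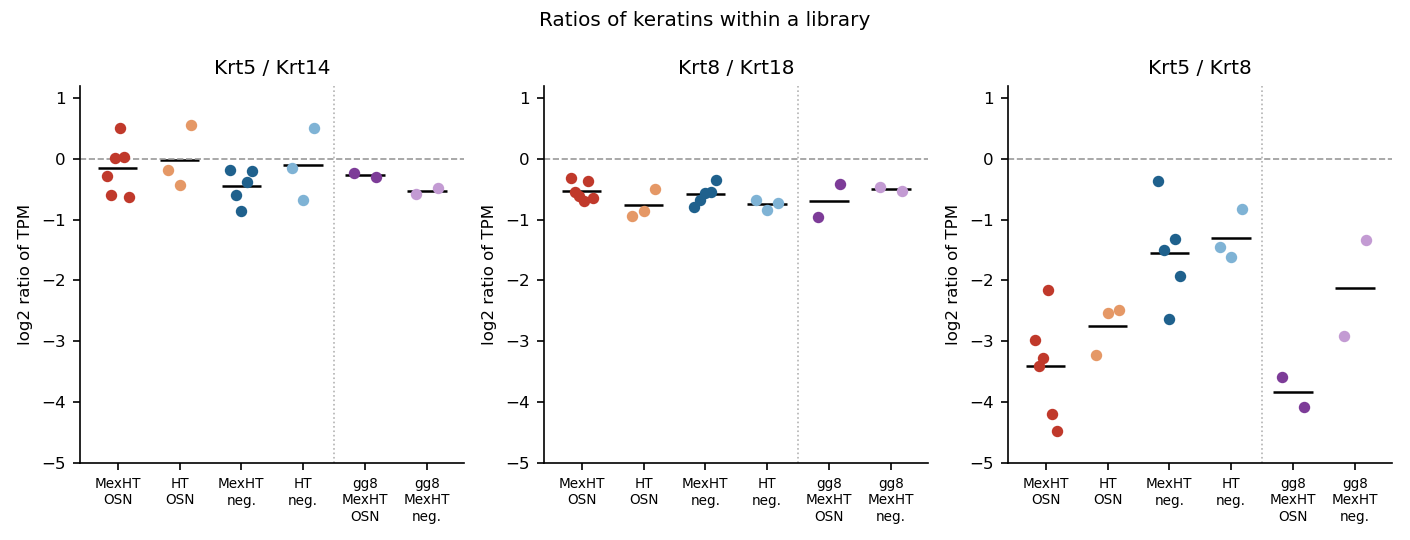
Log2 ratio of TPM for Krt5 to Krt14, Krt8 to Krt18 and Krt5 to Krt8 in each library (points) with the group mean (bar); the dashed line is equality. Krt8 to Krt18 stayed between ratios of 0.517 and 0.807 in every library, and Krt5 to Krt8 was lower in the OSN groups than in the negative groups of the same construct on average.

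Of 20 other genes of the horizontal basal cell and its hemidesmosome tested in MexHT mice, 16 were called lower in OSN and 4 higher, against 27.6% and 35.8% of all genes. Their median log2 difference was -1.79. The keratin Krt17 had the largest gap (-4.04; 235 TPM in negative cells and 11.02 in OSN), and the receptor Notch2 followed (-3.28). Itga6, the integrin subunit of hemidesmosomes, differed by -0.68 (16.5 against 26.7 TPM; limma adjusted p = 0.00454). In HT mice Itga6 differed by 0.80, not called (means of 40.2 against 17.3 TPM, with an OSN median of 19.1 and a highest OSN library of 83.5). In gg8 mice it differed by 0.015 (20.1 against 19.8 TPM). Of this list, 7 of 19 genes tested were called lower in OSN of HT mice, against 9.11% of all genes. Between constructs in OSN 2 of 19 rose and 2 fell, both shares below those of all genes (19.9% and 16.8%); of those that fell, the laminin chain Lama3 was at 4.59 TPM in MexHT and 19.5 TPM in HT (-1.85). In negative cells 17 of 20 were higher in MexHT on average, with a median of 0.40, and 0 were called.

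Of genes known from activated basal cells, 4 of 8 tested were called lower and 0 higher in MexHT OSN than in HT OSN, against 16.8% and 19.9% of all genes. Plaur, the urokinase receptor, which leukocytes also express, was at 10.1 TPM against 29.8 (-1.54), and Dmkn at 6.03 against 21.5 (-1.73). Between fractions of MexHT mice 5 of 8 were called lower in OSN and 1 higher, against 27.6% and 35.8% of all genes. Between fractions of HT mice 2 of 8 were called lower and 1 higher, against 1552 and 371 of 17027 genes. There, 4 of the 8 differences were above 0 (median -0.11). The part of basal cells in the construct difference of this list was not tested. Leukocyte integrins that bind Icam1 moved with it: Itgam was at 5.15 TPM in MexHT OSN and 28.1 in HT OSN (-1.996), and Itgb2 at 7.77 and 32.6 (-1.77). Of 5 genes of the ICAM family and its receptors tested, 3 were called lower and 0 higher in that comparison (16.8% and 19.9% of all genes), and 3 of 5 had a called negative interaction (5.37% of all genes). Trp53 did not pass in OSN between constructs (0.47, adjusted p = 0.401), and of the p53 family (Trp53 and Trp73) 1 of 2 was called higher.

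Of 13 junction genes of epithelia tested between constructs in OSN, 5 were called higher and 1 lower, against 19.9% and 16.8% of all genes. Ocln, a tight junction protein, was at 46.6 TPM in MexHT OSN and 26.6 in HT OSN (0.78), Dsp, the plaque protein of desmosomes, at 66.5 and 39.6 (0.72), and Epcam at 371 and 506 (-0.45). Between fractions in MexHT mice 6 of 13 were called lower and 3 higher, against 27.6% and 35.8% of all genes. The largest gap was that of Cdh1, at 12.6 TPM in OSN and 109 in negative cells.

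Of 47 other keratins in the table of both drivers, 13 reached a mean of 1 TPM in MexHT negative and 10 in HT negative; Krt17 (235 and 77.4 TPM), Krt23, Krt19 and Krt7 were the most abundant. Between fractions these other keratins were split. In MexHT mice 5 of 9 tested were called lower in OSN and 4 higher, against 27.6% and 35.8% of all genes. In HT mice 4 of 13 were called lower and 1 higher, against 1552 and 371 of 17027 genes. There, 8 of the 13 differences were above 0 (median 0.50). Krt7, a simple type II keratin, was lower in OSN in MexHT (-3.85) and in HT mice (-3.67). Of 15 other Klf factors, 12 had a mean of 5 TPM or more in either negative group. Between constructs in OSN 13 were tested, and 4 were called higher and 0 lower (19.9% and 16.8% of all genes), among them Klf16 (0.84) and Klf9 (0.77). In negative cells Klf6 (192 TPM) and Klf2 (158 TPM) were the most abundant other Klf genes of MexHT mice.

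Genes whose level followed a member most closely from library to library were ranked by Pearson correlation over the 17 libraries of both drivers after group means were taken out, among 13338 genes whose mean reached 5 TPM. These libraries share mice and sorts, and the values are descriptive. Trp63 was closest to Krt5 (r = 0.96), followed by the hemidesmosome integrin Itgb4 (0.95), Fmo6 (0.95), Col23a1 (0.94) and Oplah (0.90). Krt18 was closest to Krt8 (0.97), followed by Myh14 (0.94), Tyro3 (0.93), Fam83g (0.93) and Kcnk1 (0.92). Icam1 had no match of that strength: Iah1 (0.87), Tnfrsf12a (0.86), Cish (0.84), Bcl2a1b (0.79) and Zfp36l1 (0.78). Klf4 went with Bsnd (0.89), Foxo1 (0.87), Cftr (0.87), Scnn1a (0.86) and Dsp (0.86); Cftr is a chloride channel and Bsnd a subunit of others. MexHT negative replicate 1 was the highest library for Krt5, Trp63, Krt8, Krt18, Icam1 and Klf4, and the ranking without it was not made.

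Members lie at known loci in GRCm38.p6, and some share bases with other annotated genes. Krt5 (chromosome 15, 101707069 to 101712905), Krt8 (101996711 to 102004342) and Krt18 (102028216 to 102032026) stand in the type II keratin cluster, where Krt18 is the single type I gene, and Krt14 (100203162 to 100207510) and Krt15 (100131759 to 100135949) in the type I cluster of chromosome 11. In GENCODE M21 the antisense gene Gm47079 shares 511 bases with Icam1, and the lincRNA Gm36026, on the other strand, shares 271 with Krt8. The use of strand in counting is not given in the sources used here, so reads from such partners cannot be told apart. Krt14 is close in sequence to Krt16 and Krt17, and Krt8 has processed copies, so reads could be split between them in the counting.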

How the data were processed

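RNA of 21 sorted libraries was sequenced from 10 ng input with a strand-keeping kit, per the labels' protocols. The submitters' processing notes name FastQC, cutadapt, STAR, bedtools and mm10; the counting program, annotation and use of strand are not given in the sources used here. The authors deposited TPM values per gene symbol in 2 tables, scaled separately, so tests were made within a table. In each of them, 27 symbols had turned into dates and were left out. Within a gene the deposited TPM values were whole multiples of 1 read (tolerance 0.05 counts): 23614 of 23614 genes (100%) and 22776 of 22809 (99.86%) came out whole, against 0 of 16200 and 1 of 16778 with wrong library factors. Summed, they gave a depth of 7529648 to 15358109 counts per library; floors (3 counts) and depth cover counting error only.

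Each comparison used only the libraries of its groups (the interaction, the 17 libraries of both drivers) in limma 3.58.1 (R 4.3.3; lmFit and eBayes with a trend) on log2(TPM + 1), for genes whose mean there reached 1 TPM. Fold changes on this scale understate those of low genes. P-values are two-sided, Benjamini-Hochberg adjusted over all genes tested, threshold 0.05. The code was tested on simulated data. Counts of libraries in the same group differed by more than sampling noise (chi-square over its degrees of freedom, 3.53 to 127 in 33 pairs). Each replicate is labelled as a mouse.

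The labels put both fractions of a number in the same mouse. Deviations from group means correlated at 0.174, 0.3 and 0.475 in HT mice, at -0.109 to 0.421 in 5 MexHT mice and at 0.0178 in gg8 mice.

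Members, 7 gene lists and 11 marker lists were chosen with earlier results of these data known, so no test over a list was made. Besides the members, up to 2 called genes per list and comparison with the largest difference and at least 5 TPM were eligible to be named, with the first gene of each list. Alternatives were a replicate block, a pseudocount of 0.1 TPM, no filter, median-of-ratios scaling, voom on the recovered counts, each library left out, and the Xist level as a covariate. The Xist covariate was used only between constructs within OSN and within negative cells, and not for the interaction. Not every gene eligible to be named is reported here.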

Additional observations from a re-analysis of the deposited data

Results flagged for a closer look

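In groups of 4 to 10 libraries, the highest or lowest library was set against the others by Dixon's criterion, in 18 combinations of gene and group; chance marks about 1 in 20. MexHT negative replicate 1 stood apart for Krt5 (432 TPM), Krt14 (491 TPM) and Trp63 (83.4 TPM); these are 3 markers of the same cells in 1 library. MexHT OSN replicate 1 stood apart for Krt15 at 1.93 TPM, a value of 11 counts, and MexHT OSN replicate 5 for Klf5 at 50.7 TPM.

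The gap between fractions differed between constructs, by the interaction term, for Icam1 (-2.54 on the log2 scale) and Krt15 (-2.29). The Icam1 difference in OSN moved with the immune markers and the Krt15 levels in OSN lay near the floor; neither part was tested.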

How the results depend on the processing

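Over the alternatives, 767 member values were recomputed: 729 kept direction and side of the threshold, 19 lost and 8 gained the call, and 11 changed sign, all 11 of them uncalled. In MexHT OSN against MexHT negative all 144 were kept.

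Between constructs in OSN, the sign changed with the replicate block for Krt8 (-0.073), Krt18 (-0.35) and Klf5 (-0.14). With a library left out there, Krt14 ran from -0.39 to 0.074 (above 0 without HT OSN replicate 1 or 2), Krt18 from -0.14 to 0.56 (below 0 without MexHT OSN replicate 5 or HT OSN replicate 3) and Klf5 from -0.063 to 0.47 (below 0 without MexHT OSN replicate 5). Trp63 between negative groups ran from -0.056 to 0.75 (below 0 without MexHT negative replicate 1), Klf5 in gg8 mice from -2.60 to 0.21 (above 0 without OSN replicate 1), and Klf4 in the interaction from -0.27 to 0.038 (above 0 without MexHT negative replicate 1).

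Between constructs in OSN 5907 genes were called, 3745 to 6506 with a library left out and 329 with the Xist level as a covariate, where 0 members were called. The replicate block gave 4801 genes; numbers did not pair these libraries (correlations 0.115, 0.132 and -0.228). Between negative groups the count was 0 to 4 with a library left out and 1 without the filter. In HT mice 1923 genes became 4967 with the replicate block, 1052 with voom and 660 to 4183 with a library left out, and 6 to 9 members were called. In gg8 mice 1372 genes became 646 with a pseudocount of 0.1 TPM, with 0 members called, and 0 to 3703 with a library left out, with 0 to 1 members called; the lone library was assumed to vary like the other group. The replicate block called 6 members lower there, among 1318 of 16490 genes called lower. In the interaction 2086 genes became 3398 with the replicate block and 1195 to 2483 with a library left out; the members called were 1 to 3 then, and 1 with voom or with a pseudocount of 0.1 TPM. The replicate block changed no other call of a member. The cause of these moves was not tested.

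Depth limits Krt15 and Trp63 in OSN, at 0 to 13 and 8 to 33 counts with both drivers. Xist was near 0 in 2 of 3 HT mice and in no MexHT mouse with both drivers, so its level and the construct are partly confounded.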
